A study of Macaca mulatta with 19 samples.

Results

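The genes described here are 39 that encode parts of the cilium or build it, out of 32386 genes counted in luteinized granulosa cells of rhesus macaques. They were chosen by symbol (BBS, IFT, DNAAF, DNAH and DYNC2 followed by a number or letter, TTC21B, WDR19, WDR34, WDR35, WDR60, CEP164 and CEP290) and by having 10 or more counts in at least 4 libraries. Of 43 genes whose symbol matched, 4 did not reach that depth: IFT52 had 0 counts, DNAH3 and DNAH5 reached 10 counts in 2 libraries each, and DNAH7 in 3. Of the 39, 38 had 10 or more counts in all 19 libraries and the other, DNAH1, in 12. All 39 passed the filter on low counts before testing. BBS12 (ENSMMUG00000030171), WDR19 (ENSMMUG00000002756) and DNAAF3 (ENSMMUG00000028718) were singled out because earlier results of these data had them low in WSD+T, so every comparison with WSD+T is given below as a description, without a test.

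The libraries came from 19 monkeys treated from about menarche for roughly 3.5 years in 4 groups. Chow+C ate the standard diet and carried cholesterol implants (n = 4). Chow+T ate the standard diet and carried testosterone implants, which raised testosterone 4 to 5 fold above the cholesterol animals (n = 4). WSD+C ate a Western-style diet with cholesterol implants (n = 5), and WSD+T combined that diet with testosterone (n = 6). All animals went through a controlled ovulation cycle, and the cells were aspirated from the follicle that had been selected naturally and was about to ovulate. The labels enrol 10 animals per treatment and name no pooling, sort or gate. The libraries are therefore taken here as unsorted aspirated cells. Each library also carries the class of the oocyte from its follicle: MI (metaphase I, 8 libraries), MII (metaphase II, 4), degenerating (6) or GV (germinal vesicle, 1).

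A cilium is a thin extension of the cell surface built on a centriole, around a core of microtubules called the axoneme. Most cell types that have stopped dividing can carry a single immotile primary cilium that gathers receptors, among them those of hedgehog signalling. Motile cilia, such as those of the oviduct lining, also carry dynein arms that bend them. Intraflagellar transport moves cargo along the axoneme: kinesin-2 carries IFT-B trains outward, dynein-2 with IFT-A returns them, and the BBSome loads membrane proteins for exit.

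Gene counts per library ranged from 28832132 to 56385679. Of 14 granulosa markers listed, 11 were found in the table, and none of these was at 0 in any library. Their summed level was 1207 CPM in WSD+C 4 and 4344 to 14959 CPM in the other 18. In WSD+C 4 that was below the sums of leukocyte, smooth muscle and erythroid markers given below. Theca and stroma markers (10 genes, with STAR on both this list and the granulosa list) summed to 535 to 5967 CPM. CPM here is read counts relative to the library's gene counts, scaled between libraries by the trimmed mean of M values (TMM). The library Chow+C 2 had the lowest share of reads in genes, 49.1% against 55.9 to 69.1% in the others, the highest share outside annotated features (33.5%) and the highest mitochondrial share of gene counts (17.9% against 0.795 to 11.4%). Leukocyte markers (13 genes) summed to 2367 CPM in WSD+C 4 and 2126 CPM in WSD+T 6, and to 10.3 to 239 CPM elsewhere. Because these are bulk samples, fewer cells of a type and less RNA per cell cannot be told apart.

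BBS12, which encodes a chaperonin-like protein that helps assemble the BBSome, had 15.6, 47.1, 27.0 and 22.9 CPM in Chow+C 1 to 4. Its level was 17.8, 20.5, 18.2 and 13.4 CPM in Chow+T and 7.66, 12.3, 15.2, 9.15 and 21.8 CPM in WSD+C. In WSD+T it ran from 7.66 to 15.5 CPM with a median of 10.9 CPM. The 6 WSD+T libraries all lay below the lowest Chow+C library, which had 15.6 CPM against the 15.5 CPM of WSD+T 2, so the gap between the groups was narrow. Among all genes tested 0.333% were lower in WSD+T than in Chow+C without overlap. That percentage is printed for scale only, since BBS12 was chosen for this contrast. WSD+T overlapped with both Chow+T and WSD+C.

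WDR19 (also known as IFT144) is a core subunit of IFT-A. Its level was 27.2, 59.9, 36.5 and 36.4 CPM in Chow+C and 23.9, 35.8, 26.2 and 25.6 CPM in Chow+T. It was 24.9, 31.9, 23.7, 27.6 and 24.9 CPM in WSD+C, and between 18.4 and 30.2 CPM with a median of 23.4 CPM in WSD+T. Chow+C 2 was the highest library of the 19, and each of the other groups overlapped with the remaining Chow+C libraries. The group means were, in order, 40.0 ± 14.0 CPM in Chow+C (SD, n = 4), 27.9 ± 5.34 CPM in Chow+T (n = 4), 26.6 ± 3.29 CPM in WSD+C (n = 5), and lowest in WSD+T at 24.4 ± 4.72 CPM (n = 6). Neighbours in that order from Chow+T downward differed by less than 1 SD of either group.

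DNAAF3, a cytoplasmic factor needed to pre-assemble the dynein arms of motile cilia, had 1 library far above the rest. Chow+C 2 held 51.8 CPM, while the other Chow+C libraries held 5.28, 10.8 and 5.96 CPM. Chow+T held 7.53, 4.20, 3.73 and 3.10 CPM and WSD+C held 4.74, 4.73, 6.08, 5.47 and 6.67 CPM. WSD+T ran from 1.90 to 7.38 CPM with a median of 3.81 CPM. All 4 groups overlapped. With Chow+C 2 the Chow+C mean was 18.4 ± 22.3 CPM (SD, n = 4), and without it 7.35 ± 3.02 CPM (n = 3), beside 4.46 ± 2.36 CPM in WSD+T (n = 6).

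**Figure D1:**
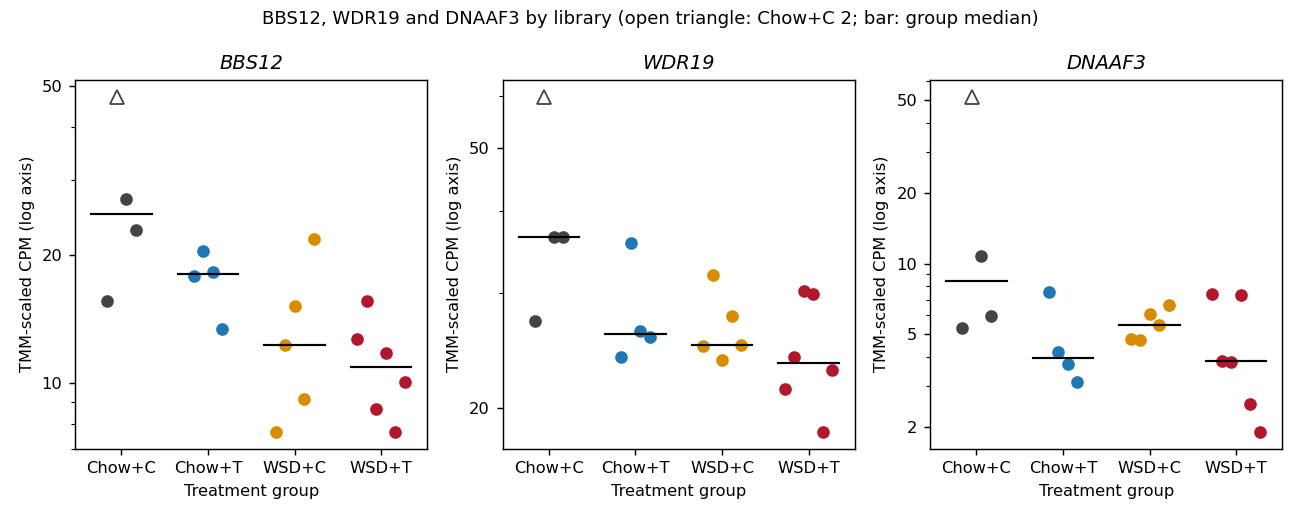
Level of BBS12, WDR19 and DNAAF3 in each of the 19 libraries by treatment group (TMM-scaled CPM on a log axis, 1 point per library, bar at the group median, open triangle for Chow+C 2). Chow+C 2 is the highest library in all 3 panels, at 47.1, 59.9 and 51.8 CPM, and WSD+T lies below all Chow+C libraries for BBS12 only.

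The size of all 3 differences between WSD+T and Chow+C depended on Chow+C 2. The fitted log2 fold change of BBS12 was −1.35 ± 0.30 (SE) with all libraries and −0.98 ± 0.29 without Chow+C 2. For WDR19 it was −0.71 ± 0.20 and −0.45 ± 0.18. For DNAAF3 it was −2.05 ± 0.55 and −0.72 ± 0.40. Of the 3, BBS12 kept most of its difference without that library and DNAAF3 least. Between WSD+T and WSD+C the fitted log2 fold change was −0.26 for BBS12, −0.12 for WDR19 and −0.31 for DNAAF3. Between WSD+T and Chow+T it was −0.66, −0.19 and −0.06. For all 3 genes WSD+T thus differed from Chow+T and WSD+C by less than from Chow+C.

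The same 3 genes also had lower fitted levels in Chow+T and in WSD+C than in Chow+C. These values share the 4 Chow+C libraries with the contrast that singled the genes out, so they are given side by side and without p-values. In WSD+C the log2 fold changes against Chow+C were −1.09 ± 0.32 for BBS12, −0.59 ± 0.21 for WDR19 and −1.73 ± 0.57 for DNAAF3. Leaving out Chow+C 2 gave −0.72 ± 0.31, −0.33 ± 0.18 and −0.41 ± 0.42. In Chow+T they were −0.69 ± 0.34, −0.52 ± 0.22 and −1.99 ± 0.62 with all libraries. Leaving out Chow+C 2 gave −0.32 for BBS12, −0.26 ± 0.19 for WDR19 and −0.66 ± 0.44 for DNAAF3.

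No member passed an adjusted p of 0.05 in any comparison of treatment groups or oocyte classes by edgeR's quasi-likelihood test, nor did any of all the genes tested (0% in each comparison). DESeq2 and limma-voom called no member in any comparison either. Of the 36 members other than BBS12, WDR19 and DNAAF3, DESeq2 gave a p-value for 35. This held in Chow+T and WSD+C against Chow+C and in both oocyte comparisons. The 2 treatment comparisons that the choice of members did not use are described first. They share the 4 Chow+C libraries with each other and with WSD+T against Chow+C, so their likeness is not read as a result.

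Chow+T against Chow+C asks what testosterone does on the standard diet. BBS12, WDR19 and DNAAF3 were chosen through the same Chow+C libraries, so the count is given for the other 36 members. At an unadjusted p under 0.05, 3 of these were lower (DNAH10, IFT88 and IFT172) and none was higher, beside 7.18% of all genes tested in either direction and 4.87% lower. By DESeq2, which gave a p-value for 35 of the 36, there were 4 such members and by limma-voom 0. Their median log2 fold change was −0.22, beside −0.02 over all genes. Without Chow+C 2 it was −0.12, and 1 of the 36 had such a p where 3.48% of all genes had. The count was 5 without Chow+C 1, 8 without Chow+C 4 (7 of them lower) and 1 without Chow+T 3. Where a count from another fit, here or below, has no share of all genes beside it, it shows only dependence on the fit. It is not read as a result about the members.

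Oocyte classes differed between these groups: Chow+C held 3 MI and 1 MII library, and Chow+T held 2 MII, 1 degenerating and 1 GV library and no MI library. With oocyte class as a term, in a fit without the GV library, 1 of the 36 had an unadjusted p under 0.05. All 8 oocyte markers tested had fitted values below 0 in Chow+T (median −3.03), none with an unadjusted p under 0.05 by edgeR. The part of oocyte class in the members' values was not tested further.

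WSD+C against Chow+C asks what the diet does without testosterone. At an unadjusted p under 0.05, 3 of the other 36 members were lower (BBS2, WDR34 and CEP164) and none was higher, beside 5.08% of all genes in either direction and 2.58% lower. DESeq2 gave 3 and limma-voom 2. Their median log2 fold change was −0.20, beside 0.02 over all genes. Without Chow+C 2 it was −0.07, and 1 of the 36, BBS2, had such a p beside 1.98% of all genes. Without Chow+C 3 the count was 1, a member that was higher, and 0 were lower. It was 5 without WSD+T 5, and 7 on leaving out any of Chow+C 1, Chow+C 4 and WSD+C 4, all of them lower.

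Markers of other cell types moved with that comparison. All 8 smooth muscle markers were higher in WSD+C (median 2.98, 6 with an unadjusted p under 0.05), as were all 7 erythroid markers (5.42, 4 with such a p) and all 13 leukocyte markers (3.45, 2 with such a p). Of 10 multiciliated epithelium markers tested, 9 were higher and 1 lower (median 1.41, 3 higher with such a p). The summed levels in WSD+C 4 were 2699 CPM for smooth muscle and 128813 CPM for erythroid markers. In the other WSD+C libraries they were 13.5 to 80.8 CPM and 12.4 to 698 CPM, against 17.0 to 123.4 CPM and 19.04 to 3433 CPM in Chow+C. The members' count without WSD+C 4 is the 7 given above.

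WSD+T against Chow+C is a description only. The fitted log2 fold change was below 0 for 31 of 39 members and the member median was −0.34, beside −0.00087 over all genes. Without Chow+C 2 it was below 0 for 30 members with a median of −0.18. Of the 39 members 24 moved closer to 0 without that library and 9 changed sign, among them DNAH10, IFT80, BBS4 and IFT20. After DNAAF3, DNAH10 and BBS12, the lowest fitted values were those of IFT172 (−1.03 ± 0.36), DNAH8 (−0.99 ± 0.64) and DNAAF1 (−0.78 ± 0.83). DNAH2 (−0.78) and IFT81 (−0.73 ± 0.28) came next, and WDR19 was at −0.71. Of the 8 members above 0 the highest was DNAH6 at 0.19, followed by DNAH9 (0.17), DNAAF2 (0.14), BBS9 (0.11), IFT22 (0.11) and IFT57 (0.08).

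**Figure D2:**
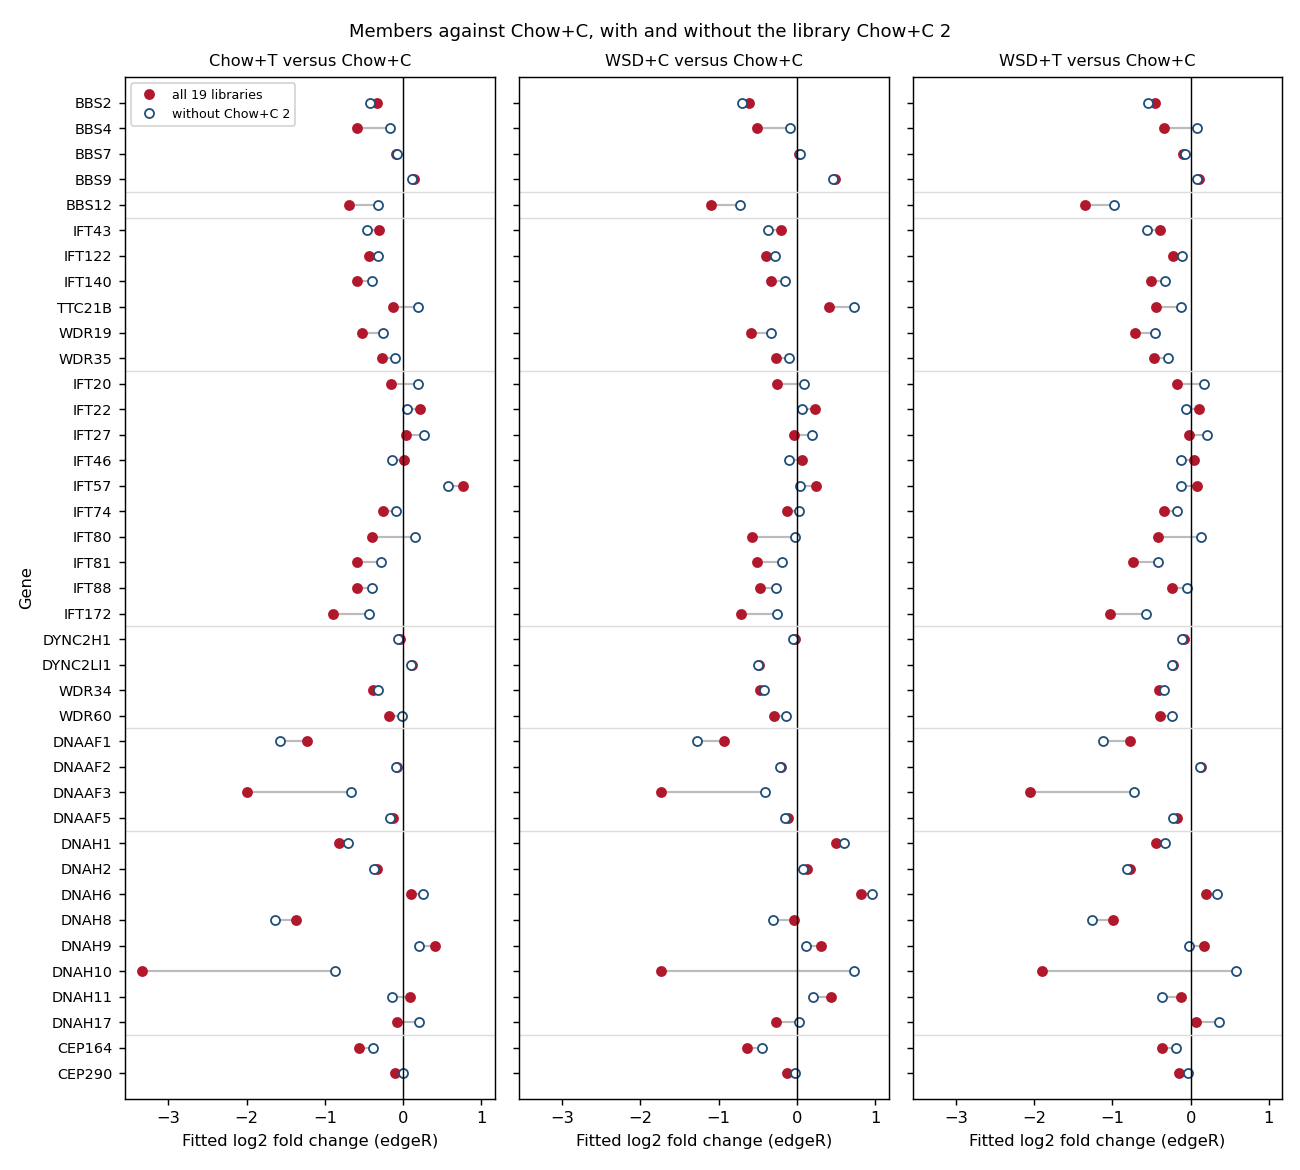
Fitted log2 fold change (edgeR) of each of the 39 members against Chow+C in Chow+T, WSD+C and WSD+T, with all 19 libraries (filled) and without Chow+C 2 (open), joined by a line and grouped by family. The open circles lie closer to 0 for 24, 25 and 24 members, with the longest lines for DNAH10 and DNAAF3.

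Of the 4 BBSome subunits BBS7 was the steadiest, between 13.9 and 21.6 CPM over the 19 libraries (coefficient of variation 12.9%). BBS2, which took the most reads of this family without correction for length, held 67.5, 56.7, 99.1 and 55.6 CPM in Chow+C and 46.1, 45.7, 67.8, 27.5 and 41.5 CPM in WSD+C. WSD+C overlapped with Chow+C through WSD+C 3. The log2 fold change was −0.61 ± 0.24 (unadjusted p = 0.0199, adjusted p = 0.83, edgeR) and −0.70 ± 0.25 without Chow+C 2, so it was no smaller without that library. Leaving out Chow+C 3 brought it to −0.39. BBS4 was highest in Chow+C 2 (22.2 CPM) and BBS9 in WSD+C 4 (21.1 CPM, against 4.21 to 10.8 CPM elsewhere).

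IFT-A, the retrograde complex, was below 0 for all 6 subunits, WDR19 among them, in Chow+T against Chow+C and for 5 of 6 in WSD+C, the exception being TTC21B. Over the 6 subunits the median log2 fold change was −0.37 and −0.30. The subunits IFT122, IFT140 and WDR35 were high together in Chow+C 2 and Chow+C 3: IFT140 held 36.1 and 32.5 CPM there and 18.4 and 19.5 CPM in Chow+C 1 and 4. Besides these libraries, IFT140 reached 39.5 CPM in WSD+C 4. IFT43 and IFT122 ran from 2.99 to 14.3 CPM and from 6.46 to 15.6 CPM. TTC21B, a peripheral subunit (IFT139), held 22.4 CPM in WSD+C 4 and 2.50 to 9.67 CPM in the other 18 libraries.

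IFT-B, the anterograde complex, had both signs among its 10 subunits. IFT172, its largest subunit, held 13.8, 61.1, 39.8 and 19.98 CPM in Chow+C and 18.9, 25.2, 16.1 and 12.1 CPM in Chow+T. The 2 groups overlapped, and the log2 fold change was −0.90 ± 0.41 (unadjusted p = 0.0403, adjusted p = 0.684, edgeR). It was −0.44 ± 0.38 without Chow+C 2. IFT80 had a like pattern, with 83.9 CPM in Chow+C 2 and 20.8 to 54.5 CPM elsewhere.

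IFT88, without which cilia do not form, held 26.5, 32.4, 20.5 and 14.6 CPM in Chow+C. In Chow+T it held 19.4, 12.1, 11.9 and 18.9 CPM. The difference was −0.59 ± 0.26 on the log2 scale (unadjusted p = 0.0366, adjusted p = 0.674, edgeR) and −0.40 ± 0.26 without Chow+C 2. IFT57 was one of 9 members with a higher fitted level in Chow+T, at 52.2, 83.4, 69.8 and 84.8 CPM against 53.0, 23.5, 30.8 and 62.8 CPM in Chow+C (log2 fold change 0.77). IFT22 and IFT46 were lowest in Chow+C 2, at 10.3 and 19.8 CPM, so that library was not high for every subunit. The remaining subunits IFT20, IFT27, IFT74 and IFT81 ranged from 7.83 to 19.9, 2.24 to 12.7, 10.7 to 25.3 and 5.97 to 19.6 CPM. Over the 10 subunits the median log2 fold change was −0.20 in Chow+T and −0.19 in WSD+C, with 6 and 7 of them below 0.

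Dynein-2, the motor that returns IFT trains to the cell body, was represented by its heavy chain DYNC2H1, the light intermediate chain DYNC2LI1 and the intermediate chains WDR34 and WDR60. WDR34 held 8.96, 12.2, 11.4 and 10.7 CPM in Chow+C and 8.62, 8.86, 7.42, 7.62 and 6.43 CPM in WSD+C. These groups did not overlap, also without Chow+C 2. It was the single member of 39 (2.56%) for which this held in that comparison, beside 0.26% of all genes for lower values (0.553% without Chow+C 2). The log2 fold change was −0.47 ± 0.19 (unadjusted p = 0.0252, adjusted p = 0.83, edgeR) and −0.42 ± 0.21 without Chow+C 2. The gap was small, 8.86 against 8.96 CPM. Chow+C 3 and WSD+C 5 also mattered for that p, and the difference was −0.45 and −0.41 without each. WDR34 overlapped between Chow+C and Chow+T, where Chow+T 2 held 11.9 CPM.

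WDR60, which took the most reads of the dynein-2 subunits without correction for length, held 33.5, 71.6, 52.7 and 59.2 CPM in Chow+C and 35.5, 86.5, 37.3 and 31.8 CPM in Chow+T. In WSD+C it held 48.2, 48.9, 53.2, 16.9 and 53.3 CPM, and in WSD+T between 15.8 and 60.1 CPM. All groups overlapped, with single libraries far from their group on either side. DYNC2H1 ranged from 8.37 CPM in WSD+T 5 to 35.9 CPM in WSD+C 4, and DYNC2LI1 from 6.20 CPM in WSD+T 5 to 18.9 CPM in Chow+C 4. All 4 subunits were below 0 in WSD+C against Chow+C (median −0.39) and 3 of 4 in Chow+T (median −0.11).

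Both centrosomal members followed the same control libraries. CEP164, a distal appendage protein of the mother centriole that docks it to the membrane, held 22.1, 51.2, 51.1 and 27.3 CPM in Chow+C. In WSD+C it held 21.5, 17.9, 27.8, 24.03 and 31.2 CPM. The log2 fold change was −0.63 ± 0.27 (unadjusted p = 0.0332, adjusted p = 0.83, edgeR) and −0.45 ± 0.29 without Chow+C 2. CEP290, which links microtubules to membrane in the transition zone, held 24.1 and 24.9 CPM in Chow+C 2 and 3, 15.1 CPM in each of Chow+C 1 and 4, and 31.5 CPM in WSD+C 4.

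The factors and motors of motile cilia held both the steadiest member and the 5 most variable ones. DNAAF5, which took the most reads among the assembly factors, stayed between 21.9 and 33.7 CPM and had the smallest coefficient of variation of all members (11.8%), and DNAAF2 had 24.1%. DNAAF1 had 86.8% and ran from 0.476 CPM in WSD+T 6 to 29.1 CPM in Chow+C 3. DNAAF3 had 141%. All 4 assembly factors, DNAAF3 among them, were below 0 in both Chow+T and WSD+C against Chow+C, with medians of −0.68 and −0.56. Among the 8 axonemal dynein heavy chains it was 27.3% for DNAH17 and 198% for DNAH10. Of the outer arm chains, DNAH9 took the most reads, between 1.41 and 19.6 CPM.

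DNAH10, an inner arm heavy chain, stood out in 1 library. It held 18.2 CPM in Chow+C 2 and 0.854, 1.34 and 0.644 CPM in the other Chow+C libraries. In Chow+T it held 0.726, 0.311, 0.443 and 0.581 CPM, and the next highest libraries of the series were WSD+C 4 (4.72 CPM) and WSD+T 3 (4.48 CPM). The log2 fold change between Chow+T and Chow+C was −3.34 ± 1.16 (unadjusted p = 0.00998, adjusted p = 0.658, edgeR) and −0.87 ± 0.91 without Chow+C 2. Between WSD+C and Chow+C it was −1.74 with that library and 0.73 without it, a change of sign.

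DNAH8, an outer arm heavy chain, held 10.4, 1.82, 4.09 and 3.17 CPM in Chow+C and 1.45, 0.889, 1.43 and 3.80 CPM in Chow+T. Its log2 fold change was −1.36 ± 0.72. Leaving out Chow+C 2 gave −1.64 ± 0.75 (unadjusted p = 0.0426, adjusted p = 1, edgeR), and no other member had an unadjusted p under 0.05 then. DNAH1 was near the limit of counting: it held 2.55 CPM in WSD+C 4, 0 in WSD+C 2 and at most 0.808 CPM elsewhere.

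**Figure D3:**
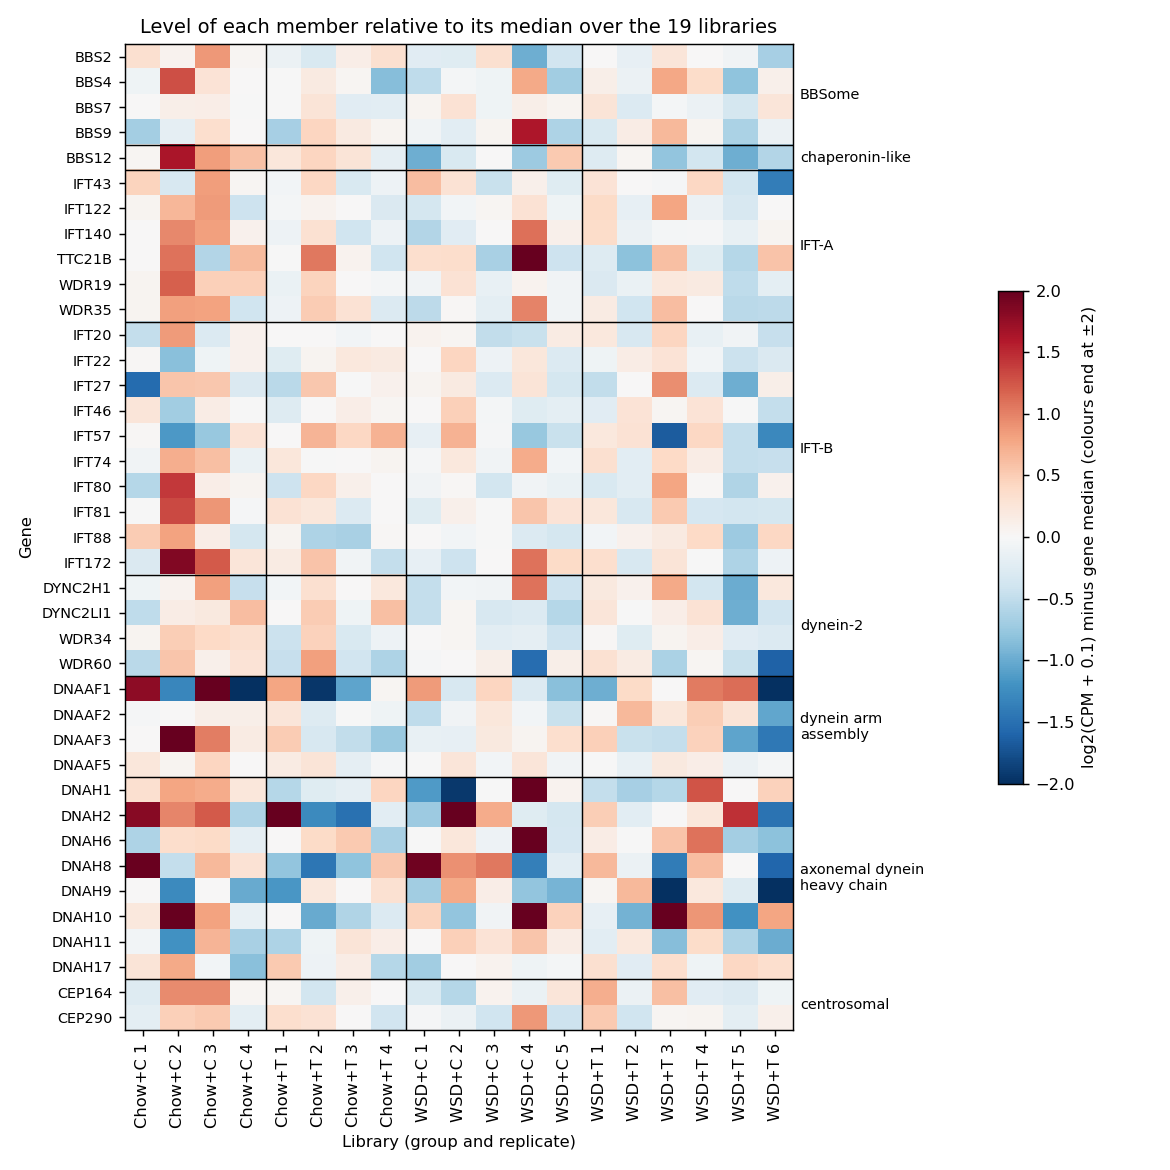
Level of each of the 39 members in each of the 19 libraries as log2(CPM + 0.1) minus the gene's median over the libraries, ordered by family and by treatment group (colours end at ±2). Chow+C 2 and Chow+C 3 are above the median for 29 and 33 members and WSD+T 5 for 4, while WSD+C 4 stands out for DNAH1, DNAH6, DNAH10, BBS9 and TTC21B.

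Which libraries were extreme was itself uneven. Chow+C 2 was the highest of the 19 libraries for 13 members (33.3%), beside 17.7% of all genes tested. WSD+C 4 was the highest for 9 (23.1%), beside 18.9%, and Chow+C 3 for 6 (15.4%), beside 4.17%. WSD+T 5 was the lowest library for 12 members, beside 3.39% of all genes. BBS12, WDR19 and DNAAF3, singled out for low values in WSD+T, are among the 13 members highest in Chow+C 2. BBS12 and WDR19 are also among the 12 members lowest in WSD+T 5. These counts and the deviations that follow are therefore descriptions, not tests. The median deviation of the members from their own medians was 0.56 in Chow+C 2 and 0.53 in Chow+C 3 on the log2 scale. It was −0.43 in WSD+T 5, where the median over all genes was 0. WSD+T 5 was not low in depth (39946249 gene counts, 67.0% of reads in genes). The read shares of Chow+C 2 are given above. Chow+C 3 had 59.6% of reads in genes, 28.9% outside annotated features and a mitochondrial share of 1.95%. The part of these shares in the result was not tested. The counts and medians without Chow+C 2 are those given with each comparison.

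The 2 oocyte comparisons did not use the values that chose the members. Treatment group was a term in the fit, since MI, MII and degenerating oocytes were spread unevenly over the groups. Between follicles with an MII and an MI oocyte, 2 of 39 members had an unadjusted p under 0.05, both lower, beside 3.91% of all genes in either direction and 1.7% lower. DESeq2 and limma-voom also gave 2. Leaving out WSD+T 1 gave 4, and leaving out Chow+T 1, 2 or 3 or WSD+C 5 gave 1. The member median was 0.02, beside −0.0071 over all genes.

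Markers of other cells moved with the MII comparison too. All 8 oocyte markers tested had higher fitted values (median 6.97, 6 with an unadjusted p under 0.05), at summed levels of 2.48 to 17.8 CPM with MII and 2.43 to 19.8 CPM with MI oocytes. All 13 leukocyte markers were above 0 (median 2.13) and 9 of 11 granulosa markers below 0 (median −0.34), none with such a p by edgeR. Summed levels were 31.1 to 135 CPM against 10.3 to 70.3 CPM for leukocyte markers, and 4344 to 12500 CPM against 7789 to 13756 CPM for granulosa markers. With the leukocyte level as a covariate DNAAF1 (−2.44 ± 1.01) and DYNC2LI1 (0.67 ± 0.31) had an unadjusted p under 0.05, and DNAH2 (−1.42 ± 0.89) did not.

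The first of the 2 members was DNAAF1. With MII oocytes it held 3.53, 1.06, 1.76 and 3.36 CPM. With MI oocytes it ran from 2.79 to 29.1 CPM with a median of 11.2 CPM, and the lowest MI library was Chow+C 2. Leaving out Chow+C 2, all 7 MI libraries, at 5.65 to 29.1 CPM, lay above the 4 MII libraries, which was true in that direction of 1.93% of all genes and of no other member. The log2 fold change was −2.91 ± 0.91 (95% confidence interval −4.87 to −0.96, unadjusted p = 0.00625, adjusted p = 1, edgeR). It was −2.996 ± 0.84 without Chow+C 2 (adjusted p = 0.692, edgeR), and between −3.68 and −2.33 when any 1 of the 18 libraries was left out. Degenerating oocytes went with DNAAF1 values from 0.476 to 14.5 CPM, which overlapped with both other classes.

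The other was DNAH2, an inner arm heavy chain, which held 2.34, 1.03, 0.622 and 0.521 CPM with MII oocytes. With MI oocytes it ran from 0.952 to 13.2 CPM with a median of 3.64 CPM. The classes overlapped, and the log2 fold change was −2.18 ± 0.92 (unadjusted p = 0.0324, adjusted p = 1, edgeR). It was −1.32 without Chow+T 1 and −3.41 without WSD+T 1. IFT88 came next, with 17.9, 14.6, 12.1 and 11.9 CPM against 11.2 to 32.4 CPM with MI oocytes (log2 fold change −0.49 ± 0.26, unadjusted p = 0.0764, adjusted p = 1, edgeR). BBS12, WDR19 and DNAAF3 had log2 fold changes of 0.02, 0.02 and −0.21, far inside their errors.

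**Figure D4:**
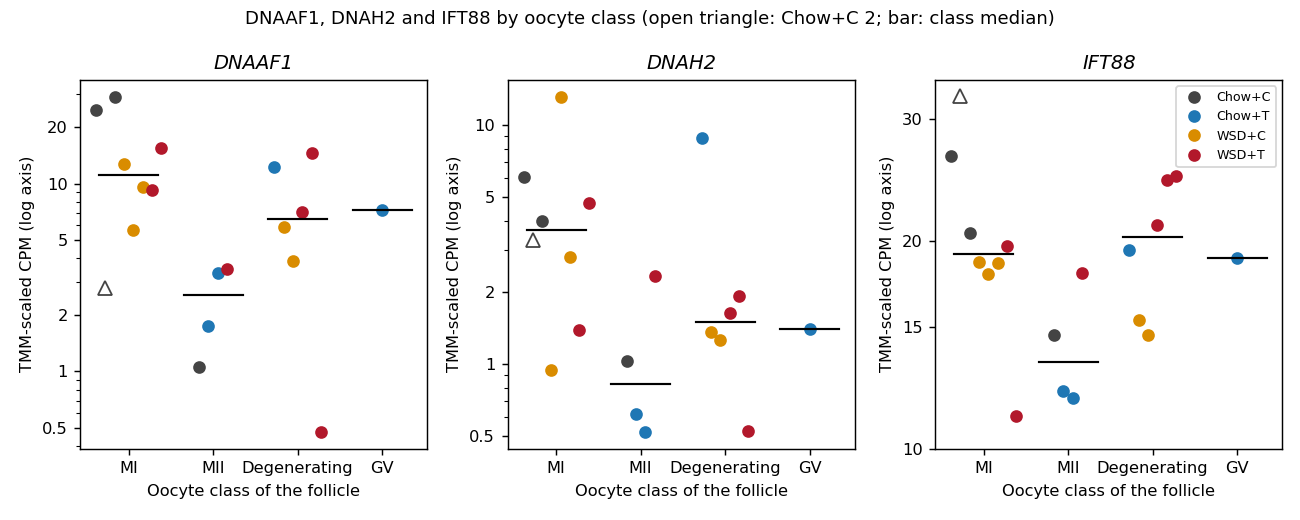
Level of DNAAF1, DNAH2 and IFT88 by the class of the oocyte (TMM-scaled CPM on a log axis, 1 point per library coloured by treatment group, bar at the class median, open triangle for Chow+C 2). The 4 MII libraries hold 1.06 to 3.53 CPM of DNAAF1, and Chow+C 2 (2.79 CPM) is the only MI library within that range.

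Between follicles with a degenerating and an MI oocyte, 4 members had an unadjusted p under 0.05, 3 higher and 1 lower, beside 14.3% of all genes (9.82% higher and 4.45% lower). DESeq2 and limma-voom also gave 4. Leaving out 1 library gave between 1 (WSD+C 4 or WSD+T 2) and 9 (Chow+C 4), with 7 without WSD+C 5 and 2 without WSD+C 1 or WSD+C 3. These leave-one-out counts have no share of all genes beside them and are not read as results about the members. The lower member was DNAH9, at 1.41, 5.10, 13.3, 6.60, 2.17 and 6.03 CPM with degenerating oocytes and 4.73 to 19.6 CPM with MI oocytes. Its log2 fold change was −1.28 ± 0.49 (unadjusted p = 0.0198, adjusted p = 0.261, edgeR), and −1.16 ± 0.55 without the 2 libraries rich in leukocyte markers.

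The higher members were DNAH1 (1.99 ± 0.83), TTC21B (1.08 ± 0.46) and DNAH10 (2.00 ± 0.93), with adjusted p from 0.298 to 0.347 by edgeR. All 3 had their highest degenerating value in WSD+C 4. Without WSD+C 4 alone the log2 fold changes were 0.93, 0.42 and 1.38. Marker lists moved with this comparison. Of the leukocyte markers all 13 had an unadjusted p under 0.05 and were higher, with summed levels of 14.0 to 2367 CPM with degenerating oocytes and 10.3 to 70.3 CPM with MI oocytes. Also higher were all 8 smooth muscle markers (5 with such a p), all 7 erythroid markers (3) and all 7 surface epithelium markers (4). So were all 5 endothelium markers tested (3) and all 10 multiciliated epithelium markers tested (6, median log2 fold change 2.07). With the mean leukocyte level as a covariate, or without WSD+C 4 plus WSD+T 6, 0 members had an unadjusted p under 0.05 by edgeR. When Chow+C 2 was left out besides those libraries there were 3, namely DNAH10, IFT20 and DNAH9.

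Other genes of the cilium were taken from 12 lists. No gene of these lists passed an adjusted p of 0.05 in any comparison by edgeR. Of the 6 further IFT subunits tested, 5 had values below 0 in both Chow+T and WSD+C against Chow+C, and none had an unadjusted p under 0.05 there. The same held for 5 and 6 of 8 further BBS genes. Over all genes tested, 51.8% were below 0 in Chow+T and 47.4% in WSD+C. The shares at an unadjusted p under 0.05 by edgeR were 7.18% and 5.08%. The list counts come from the fit with Chow+C 2 and are not read as results about the lists. For the 21 transition zone genes, 16 and 17 were below 0, with 1 at an unadjusted p under 0.05 in each. In WSD+C this was TCTN3 (−1.42 ± 0.60, unadjusted p = 0.0289, adjusted p = 0.83, edgeR), a tectonic of the transition zone that was highest in Chow+C 2 at 87.3 CPM, and its log2 fold change was −1.0 ± 0.62 without that library.

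Of 22 basal body genes, 15 had values below 0 in Chow+T against Chow+C, beside 51.8% of all genes. At an unadjusted p under 0.05 there were 2, beside 7.18% of all genes. These were the distal appendage genes CEP89 (−0.66 ± 0.25, unadjusted p = 0.0158) and FBF1 (−1.09 ± 0.44, unadjusted p = 0.0232), each with adjusted p = 0.658 by edgeR. CEP89 held 11.02, 13.4, 17.3 and 10.5 CPM in Chow+C and 7.61, 9.62, 7.19 and 8.50 CPM in Chow+T, without overlap. Lower values without overlap occurred for 1.33% of all genes in that comparison, and CEP89 was singled out after its values were seen. Its log2 fold change was −0.65 ± 0.27 when Chow+C 2 was left out. FBF1 held 29.5 CPM in Chow+C 2 and 6.59, 17.2 and 9.93 CPM in the other controls, and came to −0.60 ± 0.42 in the same fit.

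Ciliary membrane traffic and its signalling went in both directions. Of 21 genes 15 were above 0 in Chow+T against Chow+C, where 51.8% of all genes were below 0. At an unadjusted p under 0.05, 1 was higher and 2 were lower, beside 2.32% and 4.87% of all genes. NEK8, a ciliary kinase, was among the lower (−1.31 ± 0.48, unadjusted p = 0.0141, adjusted p = 0.658, edgeR), with 31.5 CPM in Chow+C 2 and 5.79, 11.6 and 6.90 CPM in the other controls. It came to −0.53 ± 0.40 when Chow+C 2 was left out. PKD1, encoding polycystin-1, was lower in WSD+C than in Chow+C (−0.54 ± 0.16, unadjusted p = 0.00377, adjusted p = 0.83, edgeR). Its levels were 129, 177, 161 and 155 CPM in Chow+C and 82.0, 115, 131, 81.4 and 124 CPM in WSD+C. These overlapped through WSD+C 3, and the log2 fold change was −0.48 ± 0.17 without Chow+C 2. Of 12 hedgehog genes none had an unadjusted p under 0.05 in either of these comparisons.

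The kinesins, light chains and assembly factors outside the member families gave few low p-values. Of 5 anterograde kinesin genes and 9 other dynein arm assembly factors none had an unadjusted p under 0.05 in any of the 4 tested comparisons by edgeR. KIF17, a kinesin-2 motor, came closest in Chow+T against Chow+C (−1.58 ± 0.77, unadjusted p = 0.0546, adjusted p = 0.689, edgeR) and stood at −0.48 ± 0.71 without Chow+C 2. Of 5 shared dynein light chains DYNLT1 alone had an unadjusted p under 0.05, lower with degenerating oocytes (−0.86 ± 0.36), where 4.45% of all genes were. Of 10 genes that modify axonemal tubulin TTLL1, which adds glutamate chains, was the 1 with such a p there (−0.56 ± 0.25).

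Genes of motile cilia outside the members were highest in different libraries. The axoneme structure list summed to 283 CPM in Chow+C 2, to 204 CPM in WSD+C 4 and to 70.4 to 171 CPM elsewhere. GAS8 (98.3 CPM), CCDC40 (91.7 CPM) and CCDC39 (10.2 CPM), which build or anchor regulatory parts of the axoneme, were highest in Chow+C 2. FOXJ1, the transcription factor of motile ciliogenesis, held 23.7 CPM in WSD+C 4, 5.52 CPM in WSD+T 4 and 0 to 0.529 CPM in the other 17 libraries. DNAI2, an outer arm intermediate chain, held 23.96 CPM in WSD+C 4 and at most 0.899 CPM elsewhere. DRC1, of the dynein regulatory complex, held 7.12 CPM there and at most 0.822 CPM elsewhere. Of 6 ciliary transcription factors 5 had an unadjusted p under 0.05 with degenerating against MI oocytes, all higher, beside 9.82% of all genes. FOXJ1 is also on the list of multiciliated epithelium markers, so the 2 lists are not separate. The log2 fold changes were 5.16 ± 1.46 for FOXJ1 (adjusted p = 0.164, edgeR) and 1.04 ± 0.33 for RFX3 (adjusted p = 0.175). Without WSD+C 4 these were 2.99 ± 1.36 and 0.53 ± 0.24 (both with an adjusted p of 0.763). Among the members 9 (23.1%) were highest in WSD+C 4, beside 18.9% of all genes. They were DNAH6 (3.09 CPM against 0.291 to 1.37), DNAH1, TTC21B, BBS9, IFT140, WDR35, IFT74, CEP290 and DYNC2H1. DNAH9 (6.60 CPM), DNAAF1 (5.85 CPM) and DNAAF3 (5.47 CPM) were not highest there.

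**Figure D5:**
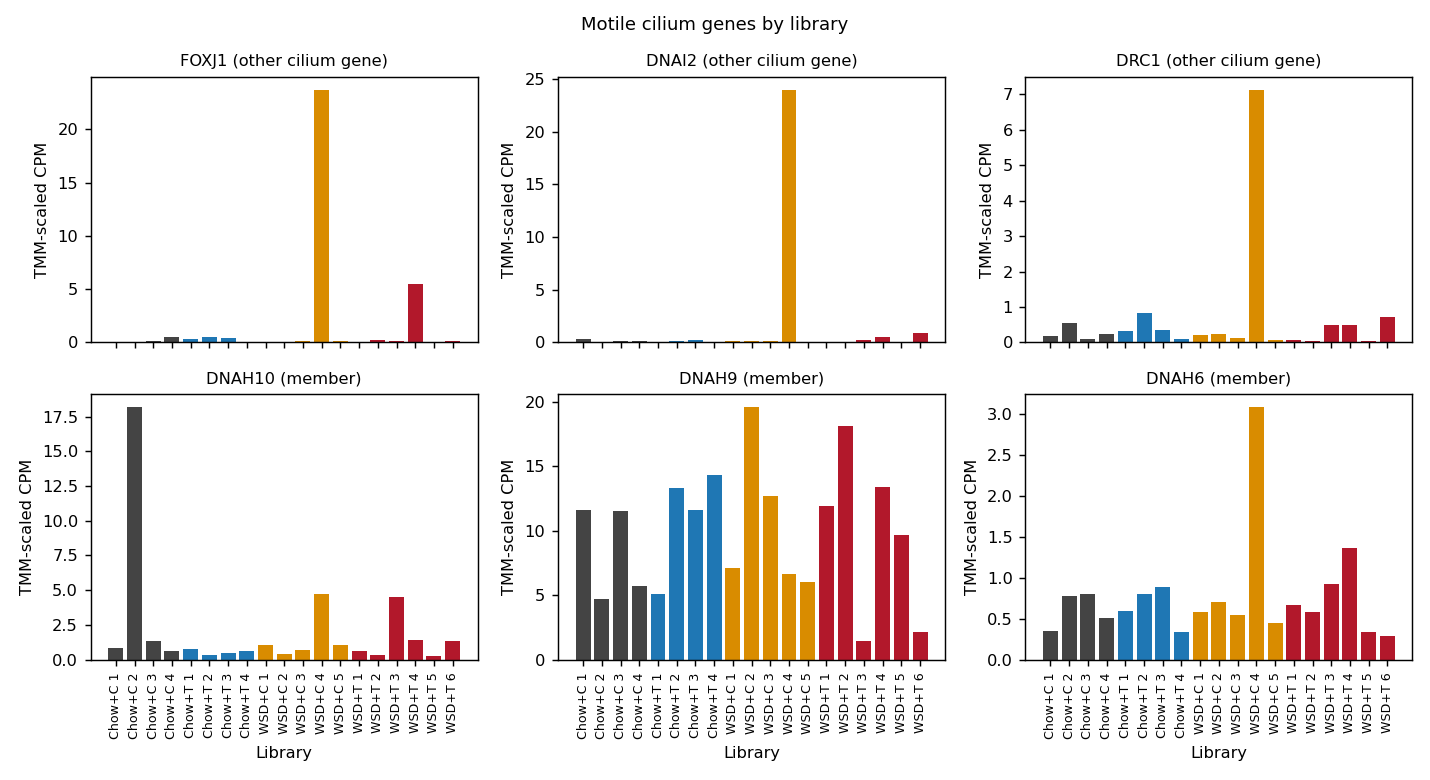
Level in each library (TMM-scaled CPM, bars from 0, coloured by treatment group, 1 library per bar) of FOXJ1, DNAI2 and DRC1, which are no members, and of the members DNAH10, DNAH9 and DNAH6. WSD+C 4 is the highest bar for FOXJ1, DNAI2, DRC1 and DNAH6, Chow+C 2 for DNAH10, and DNAH9 is spread over many libraries.

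Of 15 markers of multiciliated epithelium, 14 were at 1 CPM or more in WSD+C 4 and 1 to 7 in each of the other libraries, where up to 6 were at 0. Their summed level was 116 CPM in WSD+C 4, 212 CPM in WSD+T 4, of which OVGP1, the oviduct glycoprotein, was 181 CPM, and 8.23 to 22.8 CPM in the other 17. SNTN was at 0 in 16 libraries. Of the 22 axoneme structure genes tested, 9 had an unadjusted p under 0.05 with degenerating against MI oocytes, all higher, beside 9.82% of all genes. The list median was 1.07 and the smallest adjusted p was 0.164 by edgeR. Both WSD+T 4 and WSD+C 4 are among these follicles, and the part of such cells in the members' values was not tested. In the other 17 libraries FOXJ1 was at most 0.529 CPM, while DNAH9 ran from 1.41 to 19.6 CPM and DNAAF3 from 1.90 to 51.8 CPM.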

How the data were processed

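The values are raw read counts per gene, deposited by the authors as 1 table of 19 libraries. The submitters' processing notes name Trimmomatic, a read trimmer, and STAR, an aligner. Their versions, the genome build, the annotation and the counting settings are not given in those sources. Of 32386 genes, 21539 carried a symbol in the table. DYNC2H1, DNAH9 and DNAAF3 were named through a reference table of gene identifiers. The 4 read classes that are no gene stayed out of library sizes. The libraries were not directional, so reads of overlapping or antisense genes cannot be told apart.

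The members and the gene lists were chosen with earlier results of these data known. Counts were fitted for all genes with edgeR 4.0.16 (robust quasi-likelihood, TMM scaling, R 4.3.3) after its filter on low counts (minimum count 10 and total 15). There remained 15019 genes in the treatment fit of 19 libraries and 14976 in the oocyte fit of 18. The single GV library stayed out of the oocyte fit, which had treatment group as a term. P-values were adjusted by the Benjamini-Hochberg method over all genes tested, with a threshold of 0.05, and tests are two-sided. Where nothing says more, the labels' separate numbers are taken as separate animals. Genes were named by this rule: BBS12, WDR19 and DNAAF3, the 3 members of smallest p in each tested comparison, the 5 of largest fold change each way in WSD+T against Chow+C with a mean log2 CPM of at least 0, the member with the most reads per family, and up to 2 genes of smallest p per list. Other members were described after their values were seen.

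Alternatives were DESeq2 1.42.0, DESeq2 size factors in edgeR, limma-voom (limma 3.58.1), no filter, 10 or more counts in at least 4 libraries, each library left out in turn, WSD+T 6 with WSD+C 4 left out, the mean level of leukocyte markers as a covariate, oocyte class as a term, and no treatment term. Leaving out Chow+C 2 besides those 2 libraries was chosen after seeing the data. The fit was tested on simulated data.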

Additional observations from a re-analysis of the deposited data

Results flagged for a closer look

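In 107 sets of member values within a treatment group or oocyte class, 4 held a single library far from the rest by Dixon's test on the log scale. Chance alone gives about 5% of sets. DNAAF2, a dynein arm assembly factor, was lowest in WSD+T 6 at 7.40 CPM, with the other WSD+T libraries between 15.6 and 24.2 CPM. WDR60, a dynein-2 intermediate chain, was highest in Chow+T 2 at 86.5 CPM, with 31.8 to 37.3 CPM in the other Chow+T libraries. WDR60 was also lowest in WSD+C 4 at 16.9 CPM, with 48.2 to 53.3 CPM in the other WSD+C libraries. DNAH9 with MII oocytes was lowest in Chow+C 4 at 5.68 CPM, with 11.6 to 13.3 CPM in the other 3.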

How the results depend on the processing

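No member passed the adjusted threshold under any alternative. No paired analysis was possible because the labels give the groups no shared replicate numbers; the numbers used here follow accession order. In Chow+T and in WSD+C against Chow+C, BBS12, WDR19, DNAAF3 and the member median stayed below 0 under all alternatives. With 1 library left out the median of all 39 members ran from −0.42 to −0.15 and from −0.43 to −0.10. The named genes were chosen through the same Chow+C libraries and enter that median, so both are descriptions. For the other 36 members the median also stayed below 0 under all alternatives. With 1 library left out it ran from −0.34 to −0.12 in Chow+T and from −0.36 to −0.07 in WSD+C. Each median was closest to 0 without Chow+C 2. In the same leave-one-out fits BBS12 ran from −0.88 to −0.32 in Chow+T and from −1.35 to −0.72 in WSD+C. DNAAF3 ran from −2.31 to −0.66 and from −2.04 to −0.41, and WDR19 from −0.66 to −0.26 and from −0.73 to −0.33. With oocyte class as a term, 1 of the 36 members other than these had an unadjusted p under 0.05 in Chow+T and 5 in WSD+C. No share of all genes stands beside these counts, so they are not read as results about the members.

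Between MII and MI oocytes the signs near 0 were not stable, and the cause was not tested. The member median of 0.02 ran from −0.080 to 0.37 with 1 library left out, BBS12 from −0.15 to 0.28, WDR19 from −0.14 to 0.19 and DNAAF3 from −1.34 to 0.51. DNAAF3 was 0.36 with the leukocyte covariate and 0.26 when WSD+T 6, WSD+C 4 and Chow+C 2 were all left out, and WDR19 was −0.039 with no treatment term. Without that term 5 members had an unadjusted p under 0.05.

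Between degenerating and MI oocytes, the fits with no treatment term gave −0.49 for BBS12, −1.04 for DNAAF3 and −0.21 for WDR19, all reversed. BBS12 was −0.0082 with no filter and ran from −0.30 to 0.23 with 1 library left out, and DNAAF3 from −0.065 to 0.47. Without the filter the median of all genes in this comparison was 0.12, a shift of 0.10, so that BBS12 lay below it. DESeq2 called 801 genes there and edgeR 0, none of them a member. The number of libraries, 4 to 6 in a group, limits what could be detected, and DNAH1, with 10 counts in only 12 libraries, is limited by depth.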
